A study of Mus musculus with 9 samples.

Results

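The 10 genes *Fos*, *Jun*, *Junb*, *Jund*, *Egr1*, *Ier2*, *Btg2*, *Nr4a1*, *Hspa8* and *Hsp90aa1*, which respond to activity, growth factors or stress, were picked by name and read in single-cell libraries of the embryonic neocortex. They are 10 of the 17487 genes that the 9 files list, and each file lists all of them. Each library is 1 mouse embryo at E18.5 of the Tcf4ex4WT/lacZ line, 5 labelled wildtype (WT1 to WT5) and 4 labelled *Tcf4* knockout (KO1, KO2, KO4 and KO5), littermates from matings of mice that carry the allele on 1 copy of *Tcf4*. KO embryos carry on both alleles a lacZ/neomycin cassette before exon 4, which leaves shorter TCF4 isoforms in place. Every neocortex, WT or KO, was dissociated with warm papain, so RNA made in the tissue and RNA made during dissociation cannot be told apart. The study's comparison has WT2, WT3 and WT4 on the WT side, and KO4 and KO5 on the KO side. In comparisons below, WT and KO values follow that order.

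Immediate early genes need no new protein for their transcription and are switched on within minutes by synaptic activity, growth factors or the stress of handling. *Fos*, *Jun*, *Junb* and *Jund* encode subunits of the dimeric transcription factor AP-1. *Egr1* encodes a zinc finger transcription factor, *Nr4a1* an orphan nuclear receptor and *Ier2* a small nuclear protein. *Btg2* encodes an antiproliferative protein, known in the embryonic cortex as a mark of progenitors about to make neurons. *Hspa8* and *Hsp90aa1* encode cytosolic chaperones, the constitutive HSC70 and the stress-responsive HSP90 alpha, which also serve unstressed cells.

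The 250 bases before the start of *Fos*, *Jun* and *Btg2* are shown from RefSeq (GRCm38.p6), where 6 of the 10 members have an entry, because *Fos* divided the libraries and *Btg2* and *Jun* were called in cell classes. They lie at chr12:85473640-85473889 (plus strand), chr4:95052223-95052472 (minus strand) and chr1:134079156-134079405 (minus strand). Capitals mark every match, on either strand, to the TATA box TATAAA, the cyclic AMP response element TGACGTCA, its variant TGACATCA, its core TGACG, the AP-1 site TGACTCA, the CCAAT box, the GC box GGGCGG or the heat shock pair GAANNTTC.
Fos: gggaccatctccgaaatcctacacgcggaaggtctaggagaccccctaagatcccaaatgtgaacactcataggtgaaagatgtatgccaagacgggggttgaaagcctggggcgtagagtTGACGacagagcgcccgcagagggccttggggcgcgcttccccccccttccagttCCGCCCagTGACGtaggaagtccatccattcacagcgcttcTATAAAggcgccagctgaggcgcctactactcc
Jun: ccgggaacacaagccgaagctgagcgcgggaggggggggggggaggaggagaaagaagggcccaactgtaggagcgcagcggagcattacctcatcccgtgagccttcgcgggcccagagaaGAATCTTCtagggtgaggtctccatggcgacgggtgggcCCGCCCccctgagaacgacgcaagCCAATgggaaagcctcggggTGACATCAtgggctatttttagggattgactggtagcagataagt
Btg2: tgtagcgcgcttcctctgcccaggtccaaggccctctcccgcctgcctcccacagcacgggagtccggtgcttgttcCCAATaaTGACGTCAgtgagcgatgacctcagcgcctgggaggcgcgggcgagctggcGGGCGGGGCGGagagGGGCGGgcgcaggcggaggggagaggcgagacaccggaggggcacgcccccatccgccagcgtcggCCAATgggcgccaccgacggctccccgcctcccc

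The TATAAA of *Fos* began 33 bases before the start, and 12.37% of the 32851 promoters of this length hold it. TGACG began 129 and 66 bases before the start of *Fos* and is held by 17.77% of promoters. TGACATCA (2.928%) began 45 bases before the start of *Jun*. *Btg2* held the full TGACGTCA (1.546%) from 166 bases before its start, which also counts as TGACG on each strand. CCAAT (33.85%) was in *Jun* and *Btg2*, GGGCGG (32.74%) in each of the 3 promoters, GAANNTTC (6.694%) in *Jun*, and TGACTCA (4.463%) in none. A match of letters is not a binding site.

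Levels are means over cells of unique molecular identifiers (UMIs) per 10000 UMIs of the cell. Kept cells numbered 118 to 6173 per library, with 335764 to 29573654 UMIs in all. WT1, WT2, WT3, KO1 and KO2 were deposited as natural logs and WT4, WT5, KO4 and KO5 as counts, and these are called natural-log and count libraries. *Tcf4*, the targeted gene, was at 12.2, 12.6 and 12.2 in WT against 9.29 and 7.59 in KO (exact permutation test, 2-sided, p = 0.1, the smallest that 3 against 2 libraries allow). In *Tcf4* level the libraries labelled WT1 (4.65), WT5 (7.201) and KO1 (16.7) go against their labels. Shorter isoforms stay in place in KO embryos, and counts per gene do not tell isoforms apart. This level therefore does not settle a genotype. *Actb*, which encodes beta-actin, also set libraries apart, at 40.5 to 64.3 in WT2, WT3, WT4 and KO1 and 142 to 200.3 in the rest. Any pair of libraries shared at most 46 cell barcodes.

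*Fos* and *Jund* divided the libraries by the form of their file and not by their genotype label. *Fos* was at 0.336, 0.468, 0.529, 0.233 and 0.682 UMIs per 10000 in WT1, WT2, WT3, KO1 and KO2, and at 0.0176, 0.0147, 0.0114 and 0.00388 in WT4, WT5, KO4 and KO5. The lowest natural-log library, KO1, was thus above every count library. The means were 0.4497 ± 0.174 (SD, n = 5) and 0.0119 ± 0.005898 (SD, n = 4), 37.9-fold apart. *Jund* went the other way, at 0.459, 0.445, 0.2796, 0.451 and 0.767 in the natural-log and 1.72, 1.39, 1.37 and 1.48 in the count libraries, in the same order. Its mean was 3.103-fold higher in the count libraries, again without overlap. Of the 9117 genes that reached 0.1 on average in 2 libraries or more, 8.50% did not overlap between the forms, and of the 8 members among them *Fos* and *Jund* did not. This division was noticed in the values, so it has no test, and what in the handling of tissue or files goes with it was not tested.

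*Jun* followed *Fos* with an exception. It was at 0.761, 1.86, 2.34, 0.397 and 2.89 in the natural-log libraries against 0.574, 0.338, 0.4905 and 0.506 in the count libraries. KO1 fell among the count libraries, and the other natural-log libraries were above all of them. *Junb* was at 0.161, 0.0983, 0.0962, 0.0117 and 0.236 and at 0.0434, 0.0371, 0.0407 and 0.0333, KO1 again being the exception. Summed over the 4 AP-1 genes the levels overlapped, at 1.09 to 4.57 in natural-log and 1.78 to 2.35 in count libraries, since *Jund* ran against the others.

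**Figure D1:**
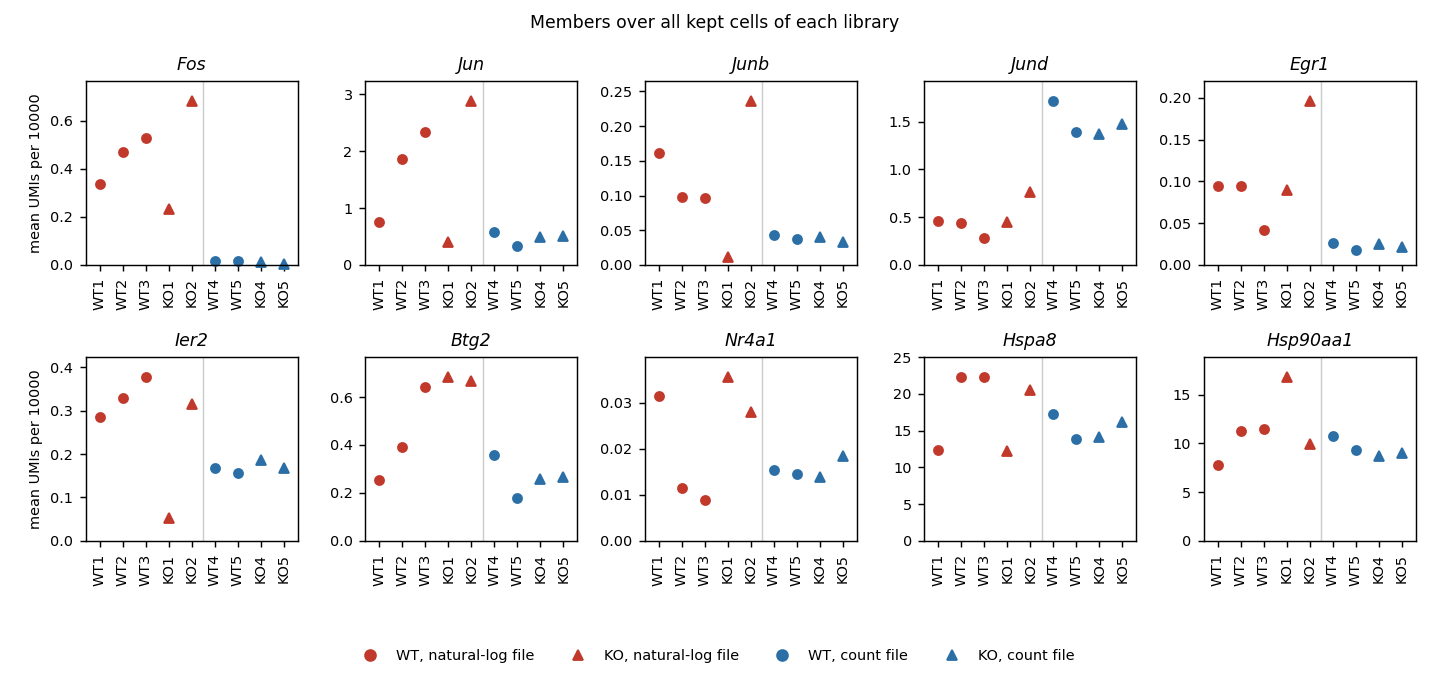
Mean UMIs per 10000 UMIs of a cell (y axis, from 0, its own range for each gene) of the 10 members over all kept cells of each library (x axis), circles for WT and triangles for KO, coloured by the form of the deposited file. *Fos* is at 0.233 to 0.682 in natural-log and 0.00388 to 0.0176 in count libraries, *Jund* at 0.2796 to 0.767 and 1.37 to 1.72, and *Hsp90aa1* is highest in KO1.

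Of the other immediate early members *Egr1* divided the libraries too, and *Ier2*, *Nr4a1* and *Btg2* overlapped between the forms. *Egr1* was at 0.09397, 0.0945, 0.0416, 0.0899 and 0.196 in natural-log and 0.0264, 0.0182, 0.02502 and 0.0216 in count libraries. Its mean was 4.53-fold higher in the natural-log libraries, whose values rest on 4, 34, 33, 11 and 10 UMIs, and *Egr1* was too low to be among the 8 members that reached 0.1. *Ier2* was at 0.285, 0.328, 0.378, 0.0537 and 0.317 and 0.168, 0.155, 0.185 and 0.167, with KO1 below all other libraries. *Nr4a1* was scarce, at 0.0357 or less in every library and with 1 to 47 UMIs, and its levels overlapped. *Btg2* was at 0.254, 0.391, 0.6405, 0.685 and 0.669 and 0.357, 0.181, 0.258 and 0.264, where WT1 was below WT4, KO4 and KO5.

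The chaperones ordered the libraries in another way. *Hspa8* was at 12.4, 22.3, 22.3, 12.3 and 20.5 in natural-log and 17.3, 13.9, 14.2 and 16.2 in count libraries, so that WT1 and KO1 were the lowest and WT2, WT3 and KO2 the highest. *Hsp90aa1* was at 7.81, 11.2, 11.5, 16.8 and 9.92 and 10.8, 9.27, 8.71 and 9.03. KO1 was far above the rest, and WT3, WT2 and WT4 came next. These 4 are also the libraries of highest *Tcf4* and lowest *Actb*, and the part of such differences between libraries in the *Hsp90aa1* levels was not tested.

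Shares of cells with a UMI repeated the division at equal depth. *Fos* was found in 7.94, 9.97, 14.7, 6.34 and 16.9% of cells in the natural-log libraries and in 0.713, 0.331, 0.357 and 0.0868% in the count libraries. With each cell thinned to 1800 UMIs these shares were 2.72 to 8.47% and 0.0868 to 0.275%. The thinned share of *Jun* was 6.04 to 33.9% and 5.92 to 9.01%, which overlap, and that of *Jund* 4.82 to 13.6% and 22.4 to 25.6%, which do not. No cell class is known to lack these genes, so free RNA was not measured as a background.

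Whether *Fos* and *Jun* were found in the same cells was asked within libraries, at 1800 UMIs per cell. In WT3, *Jun* was found in 42.5% of 127 *Fos*-positive cells (exact 95% interval 33.8 to 51.6%) and in 26.4% of the *Fos*-negative cells (24.2 to 28.8%). In WT2 it was found in 32.5% of 83 (22.6 to 43.7%) and 23.2% (20.7 to 25.8%). The intervals, which cover counting error only, are apart in WT3 and overlap in WT2. Every other library had 13 or fewer *Fos*-positive cells. Cells of all classes are pooled here and the shares of both genes differ between classes. The part of class composition in these values was not tested.

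The division was present within cell classes. Cells were gated to 13 classes by markers that are no members. Of the 6 markers of a class, 4 to 6 were among the 10 genes that led it. That follows from the gate and is no check of the class. In upper layer neurons of WT2, WT3 and KO1, *Fos* was at 0.286, 0.537 and 0.0884, against 0.00347, 0.0199, 0.0152 and 0 in the count libraries. *Jund* was at 0.355, 0.263 and 0.469 there, against 1.81, 1.36, 1.53 and 1.304. Neither gene overlapped between the forms in any of the 7 classes compared, but in small sets of libraries many genes do not. Of all genes that reached 0.1, 7.76% did not overlap in radial glia or astrocytes (4 against 4 libraries), 16.6% in upper layer cells, 12.1% in newborn neurons and 14.8% in cycling progenitors (3 against 4 each). In each of these classes 3 members did not overlap, of 7 to 9 that reached 0.1. With 2 natural-log libraries the shares were 26.9% in intermediate progenitors (5 of 7 members), 31.2% in deep layer cells (6 of 7) and 25.0% in GABAergic neurons (7 of 7), so there the division was not particular to *Fos* and *Jund*. In intermediate progenitors of the count libraries 0 *Fos* UMIs were counted in 254 cells, which allows up to 0.0317 UMIs per 10000, and in the natural-log libraries 20 UMIs in 143 cells (0.416 per 10000 summed UMIs).

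Which classes carry the members was asked by setting each class against the other kept cells of its library, with the library as a block. The test was limma on log2(mean UMIs per 10000 + 1), with Benjamini-Hochberg adjustment over all genes tested and calls below 0.05. *Btg2* in intermediate progenitors was the 1 of 8 members called there, against 2.22% of all genes, and rose by 0.60 (standard error 0.12, adjusted p = 0.0101 from limma). In cycling progenitors *Btg2* was the 1 of 9 called, against 10.4% of all genes, and rose by 0.42 (standard error 0.07, adjusted p = 0.00864 from limma). In radial glia or astrocytes 3 of 9 members were called, against 13.8% of all genes. There *Jun* rose by 0.58 (standard error 0.07, adjusted p = 0.000481 from limma), *Btg2* rose by 0.29 (standard error 0.08, adjusted p = 0.0212 from limma), and *Hsp90aa1* fell by 0.16 (standard error 0.05, adjusted p = 0.0335 from limma). All 5 calls were also made by edgeR on summed UMIs, which called 10.5, 23.1 and 28.8% of all genes in these classes, in the same order. The members are too few to set their shares of calls apart from these backgrounds.

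The calls of *Jun* in radial glia or astrocytes and of *Btg2* in cycling progenitors held with any 1 library left out. That of *Btg2* in intermediate progenitors was lost in limma without WT2 (adjusted p = 0.142), and those of *Btg2* and *Hsp90aa1* in radial glia or astrocytes were each lost without WT3, WT4 or KO1, the latter without WT2 as well. In upper layer cells limma called 0 of 8 members (0.0863% of all genes), in deep layer cells 0 of 7 (0.152%), in newborn neurons 0 of 7 (1.77%) and in GABAergic neurons 0 of 7 (0.665%). At an unadjusted p under 0.05 there were 3, 2, 2 and 1 members in these classes, against 22.1, 12.1, 13.1 and 10.2% of all genes. EdgeR called 2, 2, 2 and 0, against 5.07, 1.18, 9.73 and 4.59% of all genes.

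*Jun* in radial glia or astrocytes was at 4.02, 4.302, 1.07 and 3.83 in WT2, WT3, KO1 and KO2, and at 1.7, 0.794, 0.867 and 0.822 in the count libraries. Upper layer cells had 0.9998, 1.67 and 0.18 in WT2, WT3 and KO1, and 0.464, 0.324, 0.422 and 0.488 in the count libraries. Radial glia or astrocytes were thus above upper layer cells in 7 of 7 libraries that hold both, whatever the form of the file. *Fos* in radial glia or astrocytes was at 1.11, 0.844, 0.399 and 0.527 and 0.0796, 0, 0.0282 and 0, the highest class in 4 of 7 libraries. It was not called there by limma (adjusted p = 0.236).

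*Btg2* was high in progenitors and low in most neurons. Intermediate progenitors had 1.33, 2.22 and 1.34 in WT and 0.6496 and 0.219 in KO, and upper layer cells of the same libraries 0.119, 0.307 and 0.114 and 0.218 and 0.264. KO5 was the exception, with 1 *Btg2* UMI in its 23 intermediate progenitors. Cycling progenitors were above upper layer cells in 7 of 7 libraries and radial glia or astrocytes in 6 of 7. In WT4 the highest class was the oligodendrocyte lineage, at 1.65 over 62 cells.

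**Figure D2:**
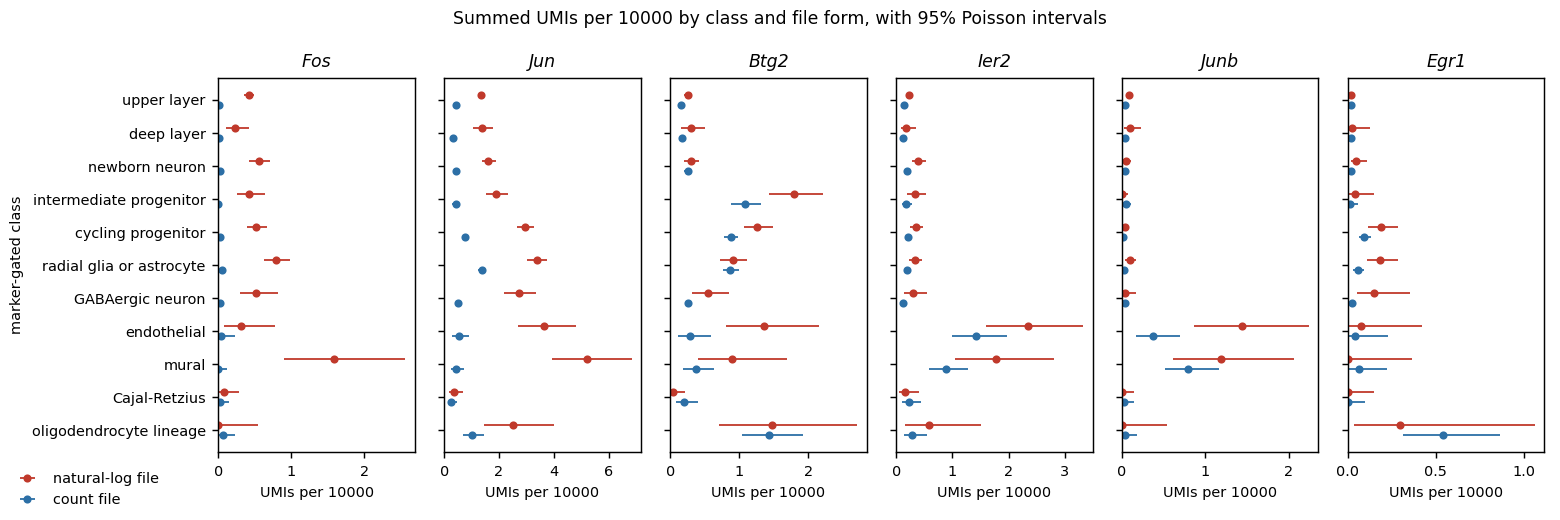
UMIs per 10000 summed UMIs (from 0, its own range for each gene) of *Fos*, *Jun*, *Btg2*, *Ier2*, *Junb* and *Egr1* in gated cell classes, coloured by the form of the deposited file, with exact 95% Poisson intervals that cover counting error only. *Btg2* is high in intermediate progenitors in both forms (1.79 natural-log, 1.09 counts), and *Jun* is higher in radial glia or astrocytes (3.38 and 1.38) than in upper layer cells (1.35 and 0.409).

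The vascular classes were too small in most libraries to be tested, and in the count libraries WT4 held most of their *Ier2* and *Junb* UMIs. Over summed UMIs of the count libraries, *Ier2* was at 1.42 per 10000 in 77 endothelial and 0.886 in 93 mural cells, against 0.134 in upper layer cells. Of the 35 endothelial *Ier2* UMIs, 24 came from 16 cells of WT4 (2.86 per 10000). WT5 was at 0.976, KO4 at 0.657, and KO5 had 0 in 11 cells. In mural cells *Ier2* was at 1.33, 0.434, 0.888 and 0.251 in WT4, WT5, KO4 and KO5. In the natural-log libraries it was at 2.35 in 33 endothelial, 1.77 in 25 mural and 0.228 in upper layer cells. *Junb* was at 0.366, 0.794 and 0.031 in the same classes of the count libraries. WT4 gave 7 of the 9 endothelial *Junb* UMIs and 19 of the 26 mural ones, and WT5 and KO5 had 0 in endothelial cells.

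Mural cells of the natural-log libraries had 16 *Fos* UMIs in 25 cells (1.58 per 10000), 11 of them in 5 cells of WT3. Those of the count libraries had 0 in 93 cells, which allows up to 0.0917 UMIs per 10000. Microglia had 42 *Jun* UMIs in 7 cells of natural-log libraries (21.2 per 10000), 29 of them in 2 cells of WT3, and 20 in 128 cells of count libraries (0.541). Cajal-Retzius cells were at the low end, with *Jun* at 0.355 and 0.256, little apart between the forms. *Egr1* in the oligodendrocyte lineage had 17 UMIs in 62 cells of WT4 (0.5997 per 10000), found in 7 of them, and 0 in the 13 such cells of the other count libraries.

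Whether loss of *Tcf4* changed the members was asked over the 5 libraries of the study's comparison, with the same measure and adjustment in limma. P-values measure the spread between single embryos. In WT that spread also holds the difference between the forms of file. WT2 and WT3 are natural-log libraries and WT4 is a count library, as are KO4 and KO5. Over all kept cells 0 of 7 members tested were called, against 1.15% of 8554 genes. At an unadjusted p under 0.05 limma had 5 of the 7, against 25.7% of all genes. EdgeR called 0 (1.6% of all genes) and DESeq2 called 1, *Fos* (3.86%). *Junb*, *Egr1* and *Nr4a1* were below the filter on low values. The median log2 difference was -0.30 over the members tested and -0.05 over all genes tested.

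*Fos* was at 0.468, 0.529 and 0.0176 in WT and 0.0114 and 0.00388 in KO, a log2 difference of -0.39 (standard error 0.16, adjusted p = 0.184 from limma). For *Jun* the levels were 1.86, 2.34 and 0.574 against 0.4905 and 0.506, a difference of -0.72 (standard error 0.28, adjusted p = 0.178 from limma). Neither gene overlapped between the genotypes, but WT4, which shares its file form with the KO libraries, was close to them. *Jund* differed by 0.50 (standard error 0.29, adjusted p = 0.277 from limma), with 0.445, 0.2796 and 1.72 against 1.37 and 1.48. WT4 was above both KO libraries and the other WT libraries were below them.

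*Hspa8* was at 22.3, 22.3 and 17.3 in WT and 14.2 and 16.2 in KO, a difference of -0.41 (standard error 0.16, adjusted p = 0.174 from limma). *Hsp90aa1* was at 11.2, 11.5 and 10.8 and 8.71 and 9.03, a difference of -0.30 (standard error 0.10, adjusted p = 0.165 from limma). *Btg2* differed by -0.21 (standard error 0.08, adjusted p = 0.178 from limma) and *Ier2* by -0.13 (standard error 0.07, adjusted p = 0.242 from limma). With KO lower, 5 of the 7 members did not overlap between the genotypes, and 43.9% of all genes tested did not. Without WT4, limma called 5 members, *Fos*, *Jun*, *Ier2* and *Hspa8* lower and *Jund* higher in KO. That fit sets natural-log against count libraries. The share of all genes that it called is not given here, so these calls cannot be set apart from those of other genes.

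Exact permutation tests over the 5 libraries gave p of 0.1 for *Hsp90aa1*, with 11.2 ± 0.358 (SD, n = 3) in WT against 8.87 ± 0.221 (n = 2) in KO, and 0.2 to 0.4 for the other members. With all 9 libraries as labelled the exact permutation tests gave p of 0.2302 to 0.881. *Hsp90aa1* then averaged 10.1 ± 1.55 (n = 5) among WT and 11.1 ± 3.84 (n = 4) among KO libraries, the other way round.

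**Figure D3:**
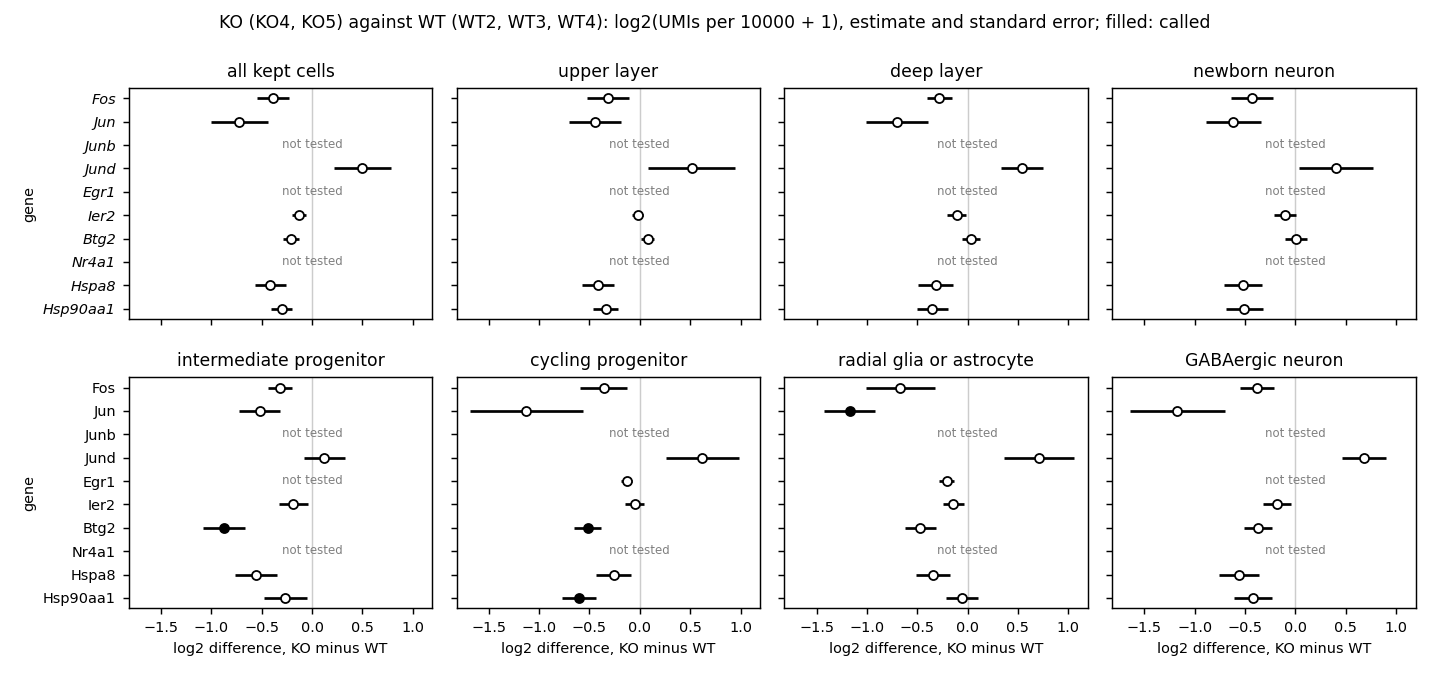
Log2 difference between KO (KO4, KO5) and WT (WT2, WT3, WT4) in mean UMIs per 10000 + 1, with standard errors from limma, for the members over all kept cells and in 7 gated classes, filled where the adjusted p was under 0.05. The 4 filled points are *Btg2* in intermediate (-0.87) and cycling (-0.52) progenitors, *Hsp90aa1* in cycling progenitors (-0.60) and *Jun* in radial glia or astrocytes (-1.17).

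In the neuronal classes limma called 0 of 7 members in each, against 3.72% of all genes in upper layer cells, 0.568% in deep layer cells, 2.33% in newborn neurons and 0.791% in GABAergic neurons. At an unadjusted p under 0.05 there were 2, 4, 2 and 5 members, against 21.3, 7.92, 17.9 and 13.0% of all genes. EdgeR and DESeq2 also called 0 in these classes, against 3.55, 2.36, 1.3 and 0.702% of all genes in edgeR and 3.86, 1.21, 1.22 and 1.39% of those to which DESeq2 gave an adjusted p. In the progenitor classes 1 of 7 was called in intermediate progenitors (3.04% of all genes), 2 of 8 in cycling progenitors (15.2%) and 1 of 8 in radial glia or astrocytes (8.54%). All 4 were lower in KO. With so few members these shares are not set apart from the backgrounds, and whether the KO effect differs between classes was not tested. A class mean does not tell fewer expressing cells from less RNA per cell. Depth and gating also differed, with median UMIs per cell of 2478.5, 3636 and 4359 in WT and 2290 and 2217 in KO. Cycling progenitors with only the 2 markers needed were 5 of 112, 2 of 117 and 10 of 334 in WT and 67 of 224 and 61 of 114 in KO. For radial glia or astrocytes they were 11 of 85, 5 of 95 and 27 of 337 against 73 of 192 and 51 of 92. The part of this in the calls was not tested.

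*Btg2* in intermediate progenitors was at 1.33, 2.22 and 1.34 in WT and 0.6496 and 0.219 in KO, without overlap, from 13, 66 and 86 and from 16 and 1 UMIs. It fell by 0.87 (standard error 0.21, adjusted p = 0.002596 from limma). The adjusted p was 0.1 in edgeR and 0.866 in DESeq2. In limma it was 0.122 without WT3 and 0.395 without KO5.

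*Btg2* in cycling progenitors was at 0.911, 1.51 and 1.08 in WT and 0.575 and 0.437 in KO, without overlap, and fell by 0.52 (standard error 0.13, adjusted p = 0.00805 from limma). The thinned share of cells with a *Btg2* UMI was 15.2 to 16.5% in these WT and 6.14 to 9.82% in these KO libraries. The library labelled WT5, low in *Tcf4*, had 0.286, below both KO libraries. The library labelled KO1, high in *Tcf4*, had 1.11, among the WT libraries. In *Actb* too WT5 (197) lies with KO4 and KO5 (172 and 170). KO1 (49.9) lies with WT2, WT3 and WT4 (50.4, 64.3 and 40.5) there. The part of such differences between libraries in the *Btg2* result was not tested. In limma the adjusted p was 0.6296 with WT5 added and 0.187 without KO5. In radial glia or astrocytes *Btg2* was at 0.559, 1.33 and 1.24 against 0.345 and 0.565 and was not called by limma (adjusted p = 0.0569).

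*Hsp90aa1* in cycling progenitors was at 13.6, 15.04 and 14.2 in WT and 8.96 and 9.101 in KO, without overlap, and fell by 0.60 (standard error 0.17, adjusted p = 0.0127 from limma). Here too WT5, at 8.39, was below the KO libraries, and KO1, at 20.8, above the WT libraries. WT5 has the high *Actb* of KO4 and KO5, and KO1 the low *Actb* of WT2, WT3 and WT4, and the part of that in the result was not tested. The adjusted p was 0.0586 in edgeR, and in limma 0.149 without KO4 and 0.196 without KO5.

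*Jun* in radial glia or astrocytes was at 4.02, 4.302 and 1.7 in WT and 0.867 and 0.822 in KO, without overlap, and fell by 1.17 (standard error 0.25, adjusted p = 0.0158 from limma). Outside the comparison WT5, at 0.794, was below both KO libraries, KO1 was at 1.07, and KO2, whose *Tcf4* (9.12) is low as its label says, was at 3.83, among the WT values. WT4 was nearer to the KO libraries than to the other WT libraries. With the form of the file as a term, which leaves WT4 against KO4 and KO5, limma gave a *Jun* difference of -0.55 (adjusted p = 0.238), so that it shrank. The other differences were lost as calls but kept most of their size in that limma fit. They were -0.73 for *Btg2* in intermediate progenitors (adjusted p = 0.8801), -0.47 for it in cycling progenitors (0.172) and -0.60 for *Hsp90aa1* there (0.0662). WT4 was 3.09-fold, 2.13-fold and 1.57-fold above the mean of KO4 and KO5 in these, and the mean of the 3 WT libraries 3.75-fold, 2.31-fold and 1.58-fold. For *Jun* in radial glia or astrocytes the folds were 2.01 and 3.96. Without KO4 or KO5 the *Jun* call was lost too (adjusted p = 0.07797 and 0.163 in limma). Cells over 1% haemoglobin UMIs, which were left out, made up 13.9 and 40.4% of KO4 and KO5 and 0.421 to 1.34% of the WT libraries compared, and the 4 calls stood with them kept.

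**Figure D4:**
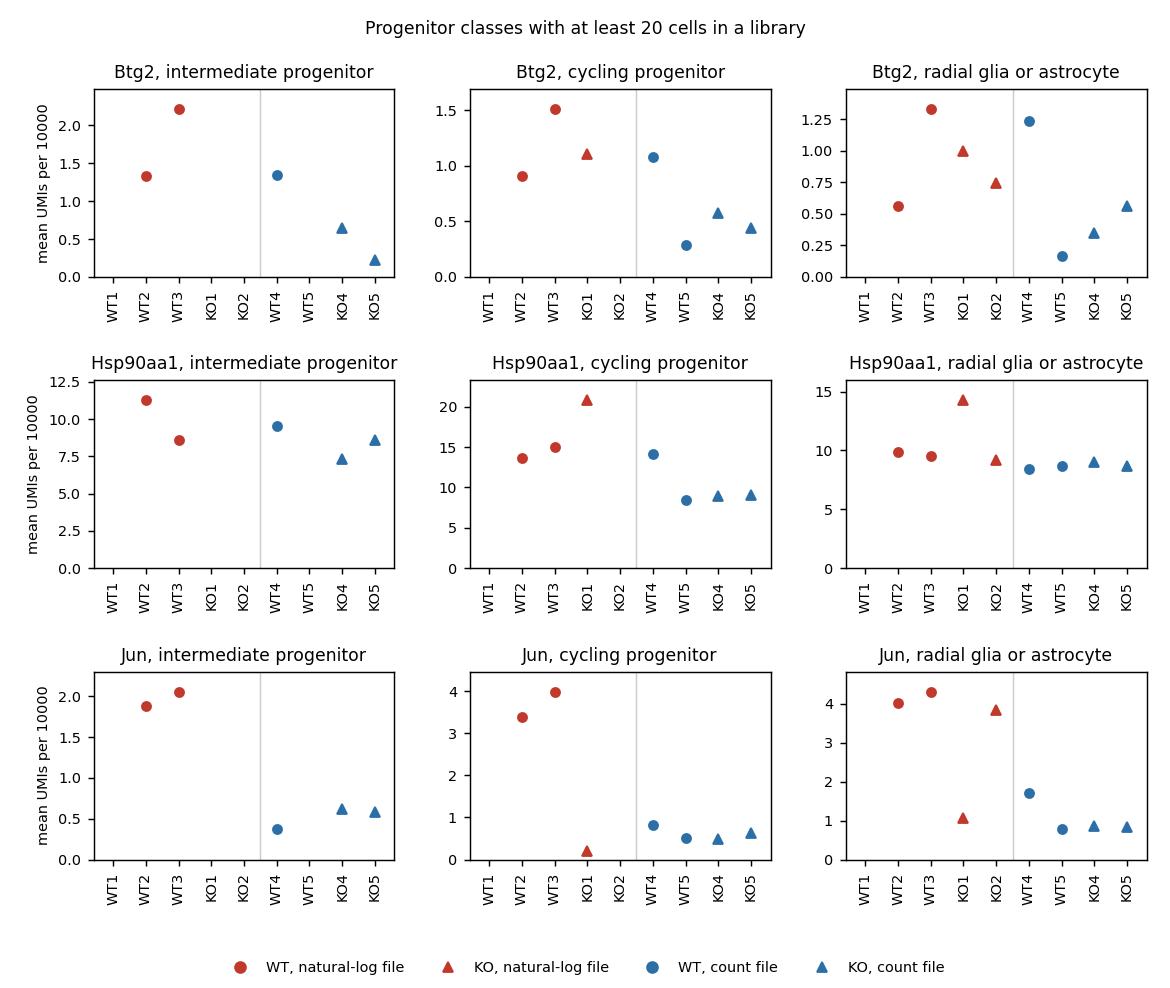
Mean UMIs per 10000 (y axis, from 0) of *Btg2*, *Hsp90aa1* and *Jun* in progenitor classes of each library with at least 20 such cells (x axis), circles for WT and triangles for KO, coloured by the form of the deposited file. In cycling progenitors *Hsp90aa1* is at 8.39 to 9.101 in WT5, KO4 and KO5 and at 13.6 to 20.8 in the other libraries, and *Jun* in radial glia or astrocytes is at most 1.7 in the count libraries.

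Other genes of the same responses were read from lists without the members. Over all kept cells limma called 0 of the 12 other immediate early genes tested (of 24 listed, median log2 difference -0.02) and 0 of 3 activity-linked effectors (of 10, 0.07). It called 0 of 12 other heat shock genes (of 16, -0.15) and 0 of 10 genes of endoplasmic reticulum and integrated stress (of 12, -0.08). *Btg1*, a relative of *Btg2*, was at 3.72, 2.52 and 3.01 in WT and 1.91 and 2.002 in KO, and *Hsp90ab1*, the constitutive HSP90, at 23.8, 19.1 and 21.7 and 20.02 and 19.5. Outside the comparison *Btg1* was at 1.06 and 1.96 in WT1 and WT5 and at 1.15 and 3.71 in KO1 and KO2.

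Within classes limma called some of them in KO against WT. *Btg1* fell by 0.63 in cycling progenitors, 0.57 in radial glia or astrocytes and 0.96 in GABAergic neurons, while *Nr4a2*, a relative of *Nr4a1*, rose by 0.28 in cycling progenitors. *Stip1*, the co-chaperone that joins HSP70 and HSP90, fell by 0.86 in intermediate and 0.55 in cycling progenitors. *Hspd1*, a mitochondrial chaperonin, fell by 0.61 in cycling progenitors and 0.59 in radial glia or astrocytes. *Hsp90b1*, the HSP90 of the endoplasmic reticulum, fell by 1.05 and 1.03 in the same classes. *Hspa5*, an HSP70 of that compartment, fell by 1.16 and *Pdia4*, a disulphide isomerase, by 0.58 in radial glia or astrocytes. These 12 are all the calls made among the 4 lists in the 7 classes. They were 5 of 35 genes tested in cycling progenitors, 5 of 35 in radial glia or astrocytes, 1 of 33 in intermediate progenitors and 1 of 35 in GABAergic neurons, against 15.2, 8.54, 3.04 and 0.791% of all genes. In the other 3 classes 0 of 35 or 36 were called. How the calls of list genes depend on the form of the file or on single libraries is not given here.

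On GRCm38 (GENCODE vM21) the genes lie as follows. *Fos* is on chromosome 12 (85473890 to 85477273), *Jun* on chromosome 4 (95049034 to 95052222), *Junb* on chromosome 8 (84974484 to 84978718) and *Jund* on chromosome 8 (70698949 to 70700616). *Egr1* is on chromosome 18 (34859823 to 34864984), *Ier2* on chromosome 8 (84661331 to 84662852), *Btg2* on chromosome 1 (134075170 to 134079120) and *Nr4a1* on chromosome 15 (101254269 to 101274795). *Hspa8* is on chromosome 9 (40800984 to 40810087) and *Hsp90aa1* on chromosome 12 (110690605 to 110702728). Both chaperone genes have processed copies elsewhere in the genome, so their counts are less certain.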

How the data were processed

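Droplet libraries (Chromium 3' v2) of single cells from E18.5 neocortex were analysed, 1 per embryo. Per the submitters' processing notes the authors used Cell Ranger 2.1.0, Seurat 2.3.4 and R 3.6.0. WT4, WT5, KO4 and KO5 were deposited as UMI counts per gene and cell. WT1, WT2, WT3, KO1 and KO2 were deposited by the authors as the natural log of scaled values plus 1. From these every value came out as a whole UMI within 1e-06, so the files mix units and a limma test on levels was used, with count tests as alternatives.

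Cells with 1000 to 5000 genes, 1800 to 10000 UMIs, less than 6% mitochondrial and at most 1% haemoglobin UMIs were kept. Median depth was 2217 to 4359 UMIs per cell, and 25.0 to 45.7% of kept cells stayed ungated. A class needed UMIs of at least 2 of its markers, more than of any other class, and 20 cells per library. No doublet caller was run, and a gate without a second class was an alternative. Levels were averaged per library, and genes reaching 0.1 in 2 libraries were tested with limma 3.58.1 in R 4.3.3 on log2(level + 1), adjusted by Benjamini-Hochberg. Exact permutation tests used scipy 1.17.1. Alternatives were edgeR 4.0.16, DESeq2 1.42.0, a pseudocount of 0.25, no filter, thinning, a gate of 3 markers, haemoglobin-rich cells kept, other library sets and a replicate block, and those on file form were chosen after seeing the data. Fits were tested on counts simulated with the same spread for every gene and no difference between the forms of file. That test does not cover the division between the forms seen here.

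The members and lists were chosen with earlier results of these data known. All members are named. Of each list at most 4 called genes are named, or the most abundant where none was called, and likeness was sought for *Fos*, *Btg2* and *Hspa8*. Exact intervals and the limit of 3 counts cover counting error only. Where a fit leaves a genotype 1 library, that library is assumed to vary like the others.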

Additional observations from a re-analysis of the deposited data

Results flagged for a closer look

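Over all kept cells the highest or lowest library of a genotype was far from the others in 4 of 20 groups tested (10 members in each genotype, by Dixon's ratio of gap to range), and chance flags about 1 in 20 groups. *Jun* was at 2.89 UMIs per 10000 in KO2, while the next KO library, KO5, was at 0.506. *Junb* was at 0.236 in KO2, next to 0.0407 in KO4. *Hsp90aa1* was at 16.8 in KO1, next to 9.92 in KO2. *Nr4a1* was at 0.0316 in WT1, next to 0.0153 in WT4, and the WT1 value is a single UMI.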

How the results depend on the processing

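Over all kept cells 0 members were called in KO against WT, except 1 by DESeq2, 2 with count files without WT5, and 0 to 5 with 1 library left out (5 without WT4). In upper layer cells 0 were called, except 2 with count files without WT5, 4 with natural-log files, and 0 to 4 with 1 library left out (4 without WT4). Count files without WT5 leave WT4 alone as WT, and natural-log files leave KO1, whose *Tcf4* goes against its label, alone as KO in upper layer cells, newborn neurons and cycling progenitors, so these fits assume that a lone library varies like the others. In the other 6 classes 4 calls became 1 with no filter, with DESeq2, with WT5 added or with all libraries, 2 with edgeR (either scaling) or a gate without a second class, 0 with file form as a term (5 or all libraries) or count files as labelled, and 0 to 21 with 1 library left out (21 without WT4, 2 without KO4, 0 without KO5). For classes against other cells 5 calls became 2 with no filter, 16 with edgeR, 3 with thinned cells, 1 with a gate without a second class or with count files, and 2 to 7 with 1 library left out (2 without KO1, 3 without WT2, WT3, WT4 or KO2). Fewer libraries or genes enter several of these fits, and otherwise the cause was not tested. The counts stand here without the share of all genes that each fit called. They show how the calls depend on the processing and not whether the members stand out from other genes.

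Log2 differences of KO against WT over all kept cells changed sign for *Jun* (0.046 with count files as labelled), *Jund* (-0.17 with file form as a term in 5 libraries and with count files without WT5, -0.074 with count files as labelled) and *Ier2* (0.0099, 0.0099 and 0.018 in the same order). They changed sign for *Btg2* (0.10 with all libraries, 0.13 with file form as a term in all, 0.24 in natural-log files) and *Hsp90aa1* (0.091, 0.11 and 0.34), and for *Hsp90aa1* in cycling progenitors (0.054 with file form as a term in all libraries, 0.51 in natural-log files). Differences of mean level with all 9 libraries were 0.0283 for *Egr1*, 0.105 for *Btg2*, 1.01 for *Hsp90aa1* and 0.901 for *Tcf4*, against negative values over 5 libraries.

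Same-numbered libraries correlated at -0.0555 to 0.567 in their deviations over 1847 genes. WT2 and WT4 correlated best with KO2 (0.313) and KO4 (0.303), which share their numbers. WT1 correlated best with KO2 (0.19), and WT5 with KO4 (0.574), little above KO5 (0.567). The form of the file also follows the numbers, so these values do not settle whether the numbers pair the libraries. A replicate block needs numbers that both genotypes share, and the 5 libraries share only the number 4, so it was fitted over all libraries as labelled with shared numbers (1, 2, 4 and 5 over all kept cells, 4 and 5 in most classes). Over all kept cells it thus leaves out WT3 and adds KO2 and WT1, WT5 and KO1, of which the last 3 go against their labels in *Tcf4* level. No part of its change is put down to the block alone. It called 0 members over all kept cells, in upper layer cells and in the other 5 classes it could be fitted in. The log2 difference over all kept cells was 0.014 for *Fos*, 0.050 for *Jun*, 0.17 for *Btg2* and 0.14 for *Hsp90aa1*, against -0.057, -0.13, 0.10 and 0.091 with all libraries and no block. Depth limits *Nr4a1*, *Egr1* and *Junb* in every library, and *Fos* in the count libraries.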

Other observations

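The genes with the pattern most like that of a member were sought over 57 combinations of library and class with at least 20 cells, among 2993 genes averaging 0.5 UMIs per 10000 or more. The points share libraries and the form of the file divides them, so the values are a description. For *Fos* they were *Sarnp* (Pearson r = 0.827), *Ywhae* (0.789), *Larp7* (0.7696), *Metap2* (0.754) and *Rdx* (0.753), and among the members *Jun* had 0.804 and *Jund* -0.803 with *Fos*. For *Btg2* they were *Lima1* (Pearson r = 0.835), *Slc25a5* (0.796), *Chd7* (0.779), *Cdk2ap1* (0.777) and *Mdk* (0.749). For *Hspa8* they were *Ywhaq* (Pearson r = 0.816), *Cct8* (0.813), *Marcksl1* (0.792), *Cct4* (0.791) and *Maf1* (0.7901), where *Cct8* and *Cct4* encode subunits of a cytosolic chaperonin.

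Other genes of the lists were set against the rest of their library in radial glia or astrocytes too. Among other immediate early genes limma called *Cyr61*, a matricellular protein gene, which rose by 0.53, and *Ier5*, *Nr4a2* and *Nr4a3*, which fell by 0.21, 0.15 and 0.13. Among other heat shock genes *Hspe1*, a mitochondrial co-chaperonin, rose by 0.35 and *Dnaja1*, an HSP40, fell by 0.27. *Scg2*, a secretogranin gene among the activity-linked effectors, fell by 0.11, and of the genes of endoplasmic reticulum stress *Hsp90b1* rose by 0.40 and *Sdf2l1* by 0.17. These are 9 of 40 list genes tested in that class (4 of 13, 1 of 5, 2 of 12 and 2 of 10 by list), against 13.8% of all genes.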
